A study of Mus musculus with 6 samples.

Results

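The levels of 42 components of TGF-beta and BMP signalling were examined in kidneys of *Pkd1*-mutant mice. The genes were ligands, latent binding proteins, receptors, SMADs, antagonists and ID targets, listed by name and matched to the gene symbol of each transcript, and all 42 were found among 23276 gene symbols. Where a gene had several transcripts, the one with the highest mean abundance stood for it. Total kidney RNA had been sequenced from 3 SKO mice, whose genotype is given as KspCre; Pkd1 F/RC, and from 3 DKO mice, which had floxed miR-17∼92 alleles (miR17∼92 F/F) on top of that genotype, all at postnatal day 22 by the labels. All 6 mice thus carried a hypomorphic RC allele of *Pkd1* in every cell and a floxed *Pkd1* allele recombined by Ksp/Cre, which acts in renal tubule cells and not in the stroma, vessels or glomeruli. The floxed miR-17∼92 cluster was the feature that set the DKO mice apart.

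The values used here are the authors' mean abundance of each transcript over the 6 kidneys, in CPM, read counts scaled to a common library total. The mean joins both genotypes, so it has no spread between mice, no level of 1 genotype can be given, and DKO and SKO kidneys were not compared here. The depth of each library is unknown. Every order of genes given below is therefore an order of single means with no error attached. No mean for a genotype was available to check the deletion, and over the 6 kidneys *Mir17hg*, the host transcript of the cluster, stood at 4.21 CPM and *Pkd1* at 31.8 CPM. In whole-kidney RNA, fewer cells of a type and less RNA per cell cannot be told apart.

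TGF-beta ligands are secreted in a latent form held in the matrix by latent binding proteins. Once released, they bind a pair of type II and type I receptor kinases, and the type I receptor phosphorylates SMAD2 and SMAD3. Activins use the same SMADs, whereas BMPs act through SMAD1 and SMAD5, and both sets of receptor-activated SMADs enter the nucleus with SMAD4. In kidney, TGF-beta is best known for driving matrix deposition in fibrosis, and BMP7 for its role in nephron formation and for opposing TGF-beta.

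The components were mostly well above the lowest levels of the table. A mean of at least 1 CPM was reached by 40 of 42 components (95.2%) and by 13001 of all 23276 gene symbols (55.9%). At 10 CPM the counts were 27 components (64.3%) and 7501 gene symbols (32.2%). Both components under 1 CPM were BMP antagonists.

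**Figure D1:**
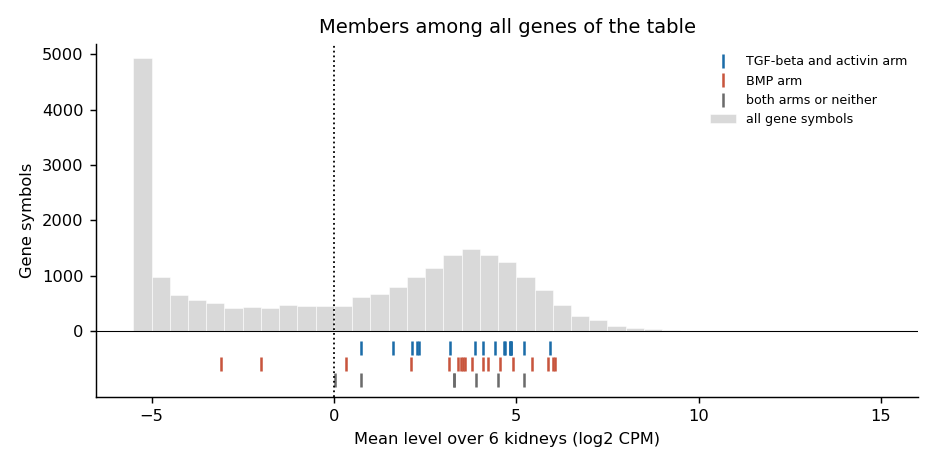
Histogram of the mean level of all 23276 gene symbols (x axis, log2 CPM; y axis, number of gene symbols), with each of the 42 components marked by a tick below it, coloured by arm. The dotted line marks 1 CPM, and 40 components lie to its right, while *Grem1* and *Nog* lie to its left.

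The question set for these genes was whether the TGF-beta arm and the BMP arm differ. Since a long transcript collects more fragments, levels were ranked and compared between genes as CPM per kb, the CPM divided by the length of the gene's RefSeq transcript in the GENCODE annotation. The 17 genes of the TGF-beta and activin arm had a median of 4.19 CPM per kb and ranged from 0.717 to 10.6. The 18 genes of the BMP arm had a median of 4.37 CPM per kb and a wider range, from 0.0281 to 45.6. The difference of the medians, TGF-beta minus BMP, was -0.061 on the log2 scale of CPM per kb, and its sign changed with the choice of transcript, with the scaling by length and with the genes assigned to each arm, so neither arm stood above the other. With only RefSeq rows the difference was 0.41, and without the target genes it was 0.46. The 12553 genes with a length and at least 1 CPM had a median of 4.25 CPM per kb, close to both arms. The BMP arm includes genes under 1 CPM, however. With the same cut of 1 CPM, the medians were 4.19 CPM per kb for the TGF-beta arm and 5.78 for the 16 BMP genes left.

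**Figure D2:**
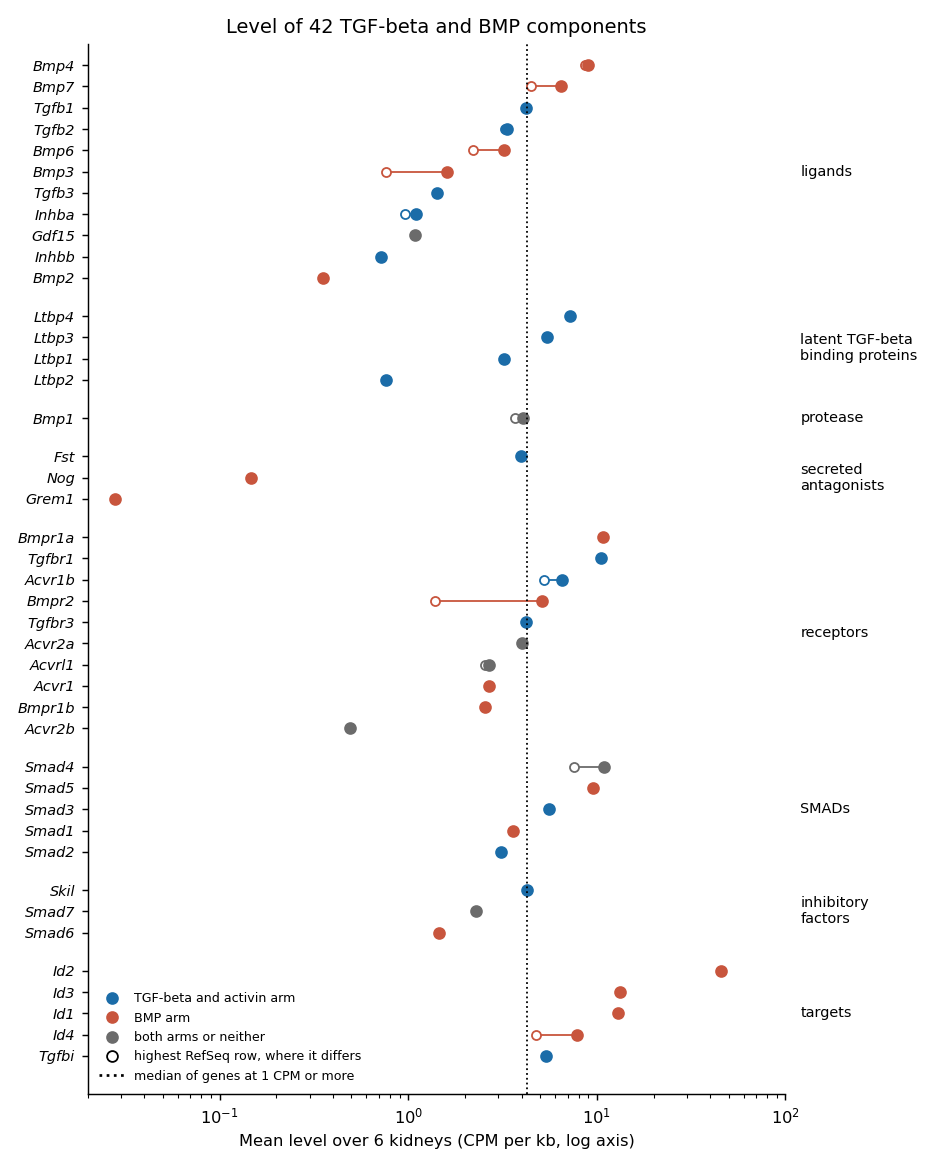
Mean level of each component over the 6 kidneys (x axis, CPM per kb on a log scale), grouped by role and coloured by arm. Filled circles use the highest transcript of the gene and open circles the highest RefSeq transcript where it differs; *Id1*, *Id2* and *Id3* lie furthest right, *Grem1* and *Nog* furthest left, and the arms overlap among the ligands, the receptors and the SMADs.

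Among the ligands, the BMPs spanned both ends of the range. *Bmp4*, a BMP with roles in ureter and collecting system growth, was the highest ligand at 9.01 CPM per kb (18.6 CPM). *Bmp7*, the BMP of nephron progenitors and tubules, followed at 6.42 CPM per kb (23.6 CPM). *Bmp6*, best known for its control of iron balance, stood at 3.21 CPM per kb, and *Bmp3*, an atypical BMP that opposes the others, at 1.62. *Bmp2* was the lowest ligand of all, at 0.353 CPM per kb (1.25 CPM), so that *Bmp4* was 25.6 times and *Bmp7* 18.2 times as high as *Bmp2* per kb.

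The 3 TGF-beta isoforms lay closer together. *Tgfb1* stood at 4.19 CPM per kb (9.11 CPM), *Tgfb2* at 3.33 (17.0 CPM) and *Tgfb3* at 1.43 (4.84 CPM). The RefSeq transcript of *Tgfb2* is 5.12 kb long and that of *Tgfb1* 2.18 kb. The activin subunits *Inhba* and *Inhbb* were rare, at 1.10 and 0.717 CPM per kb (1.69 and 3.05 CPM), so their order turned with the scaling by length. *Gdf15*, a distant family member that responds to stress and signals through a receptor outside this family, was at 1.08 CPM per kb. The 5 TGF-beta and activin ligands had a median of 1.43 CPM per kb and the 5 BMP ligands a median of 3.21. The BMP ligands kept the higher median with only RefSeq rows, with the lowest row of each gene and without scaling by length, although the ranges of the groups overlapped. Per kb, this order rested on counting the activin subunits with the TGF-beta isoforms. *Tgfb1* and *Tgfb2* both lay above the BMP median of 3.21 CPM per kb.

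Of the proteins that hold or release ligands, *Ltbp4* was the highest at 7.23 CPM per kb (37.0 CPM). *Ltbp3* stood at 5.46 and *Ltbp1* at 3.21 CPM per kb. *Ltbp2*, the member of the family that does not bind latent TGF-beta, was at 0.767 CPM per kb, and *Ltbp4* exceeded it 9.43 times. *Bmp1*, which despite its name is a protease that cleaves procollagens and frees latent TGF-beta, was at 4.06 CPM per kb.

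The secreted antagonists were unequal. *Fst*, which encodes the activin-binding follistatin, stood at 3.94 CPM per kb (4.39 CPM). The annotated *Fst* transcript is only 1.11 kb long, and the gene ranked 22nd of the 42 per kb but 34th by CPM. The BMP traps *Nog* and *Grem1* were the lowest of the 42 genes, at 0.147 and 0.0281 CPM per kb (0.249 and 0.116 CPM), above 32.1% and 17.1% of the genes with a length. The lowest value of the table is 0.0263 CPM and is shared by 4617 transcripts, so both were above that floor. *Nog* lies on chromosome 11 (89300638 to 89302332, GRCm38) and *Grem1* on chromosome 2 (113746164 to 113758646).

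The best-known type I receptors of the arms, *Bmpr1a* and *Tgfbr1*, were near each other and above the remaining type I receptors. *Bmpr1a* (chromosome 14, 34410734 to 34503341) was at 10.8 CPM per kb (64.5 CPM) and *Tgfbr1* (chromosome 4, 47353222 to 47414931) at 10.6 CPM per kb (60.9 CPM), a ratio of *Tgfbr1* to *Bmpr1a* of 0.977. *Bmpr1b* stood at 2.56 CPM per kb, so *Bmpr1a* exceeded this alternative type I receptor 4.23 times. *Acvr1b*, the activin type I receptor, was at 6.53 and *Acvr1*, a type I receptor for BMPs, at 2.69 CPM per kb. *Acvrl1*, the type I receptor best known from endothelium, was at 2.70 CPM per kb. *Tgfbr3*, the co-receptor betaglycan, was at 4.22.

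Type II receptors had a wider spread. *Bmpr2* (chromosome 1, 59763400 to 59879014) stood at 5.14 CPM per kb (66.3 CPM, over a transcript of 12.9 kb), but at 1.39 CPM per kb (17.9 CPM) with its RefSeq row. *Acvr2a* stood at 4.002 CPM per kb and *Acvr2b* at 0.492, a ratio of 8.14, and the annotated *Acvr2b* transcript carries a 3′-UTR of only 54 bases. *Tgfbr2*, the TGF-beta type II receptor, is not among the 42 genes and stood at 9.60 CPM per kb (77.7 CPM), near *Tgfbr1*.

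Among the SMADs, the shared partner *Smad4* stood at 10.9 CPM per kb (36.9 CPM), a value from an assembled row. With the RefSeq row it stood at 7.56 CPM per kb, so its place above *Smad5* turned with the row. Of the BMP mediators, *Smad5* stood at 9.51 CPM per kb (43.1 CPM) and *Smad1* at 3.599 (11.2 CPM), a ratio of 2.64. *Smad9*, the remaining BMP mediator, which is not among the 42 genes, was at 0.245 CPM per kb, and *Smad5* was 38.8 times as high. Of the TGF-beta mediators, *Smad3* stood at 5.61 and *Smad2* at 3.12 CPM per kb, a ratio of 1.80. The inhibitors were lower, with *Smad7*, which blocks both arms, at 2.30 CPM per kb and *Smad6*, which acts mainly on BMP signalling, at 1.46. *Skil*, whose product SnoN represses SMAD-dependent transcription, stood at 4.27 CPM per kb (28.7 CPM).

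The ID genes, which encode inhibitors of basic helix-loop-helix factors and are classic BMP targets, were the most abundant group per kb. *Id2* (chromosome 12, 25093799 to 25097140) was the highest of all 42 genes at 45.6 CPM per kb (58.0 CPM), above 97.2% of the genes with a length. *Id3* stood at 13.2, *Id1* at 12.9 and *Id4* at 7.85 CPM per kb. *Tgfbi*, a matrix protein named for its induction by TGF-beta, was at 5.37 CPM per kb, and *Id2* exceeded it 8.50 times. *Tgfbi* is the only TGF-beta target among the 42 genes, so this ratio does not compare the targets of the arms in general. *Ctgf*, a TGF-beta target outside the 42 genes, stood above *Id2*, at 58.3 CPM per kb. The short transcripts of *Id1*, *Id2* and *Id3*, from 0.934 to 1.28 kb, raise their values per kb, and per kb they ranked 1st to 3rd of the 42 genes. By CPM, *Id2* ranked 4th, *Id3* 20th (16.9 CPM) and *Id1* 24th (12.1 CPM).

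The transcript chosen for a gene moved some of these values. The 42 genes had 92 rows in the table, and 28 genes had more than 1. The gap between the highest and lowest row ran from 0.00013 on the log2 scale for the 3 rows of *Smad5* to 6.31 for *Ltbp2*. The 3 rows of *Smad5* all stood at 43.1 CPM. How reads shared by rows were counted is not given, so rows were not treated as separate measurements, except in a check that summed them. In 14 genes the row used was a transcript assembled from the reads, which lay above the RefSeq row in 13 and was equal to it in *Tgfbr1*. It exceeded the highest RefSeq row by more than 1.5 times in 3 genes (7.14%), against 4.44% of the genes with a RefSeq row and at least 1 CPM. The largest gap was in *Bmpr2*, with 66.3 CPM in the assembled row and 17.9 CPM in the RefSeq row, a ratio of 3.70. The others were *Bmp3*, with a ratio of 2.11, and *Id4*, with a ratio of 1.66. The extent of each assembled transcript is not given in the sources used here, and its part in these gaps was not tested.

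**Figure D3:**
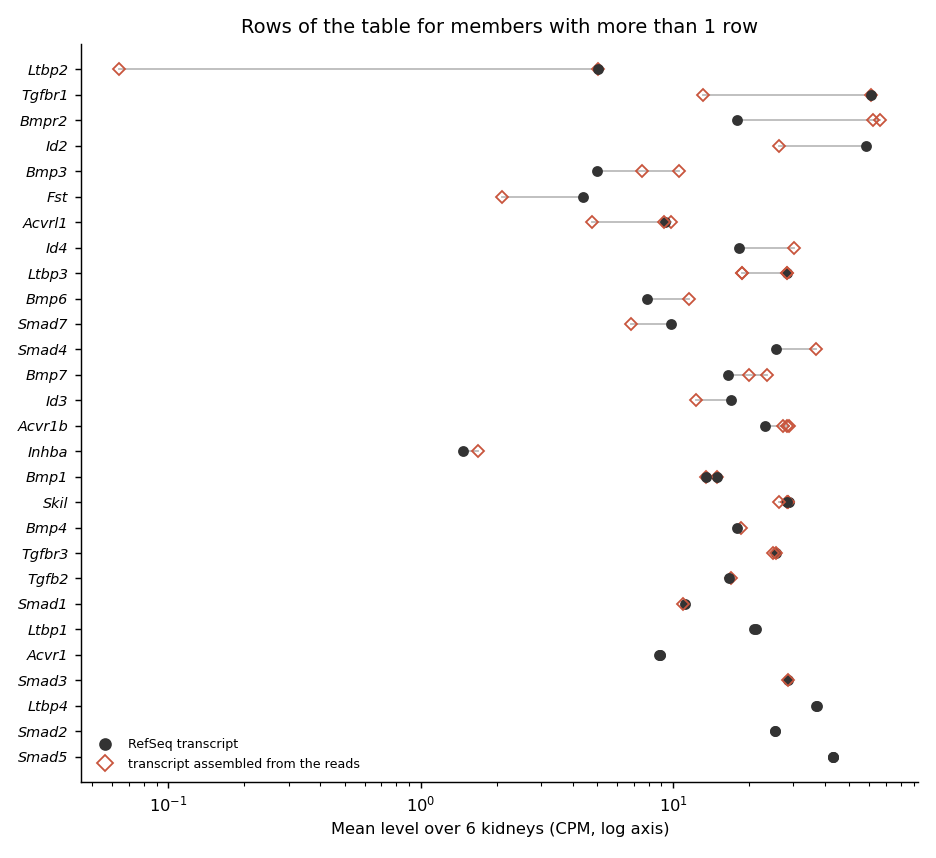
Every row of the table for the 28 components with more than 1 row (x axis, CPM on a log scale; y axis, gene, ordered by the spread between its rows). Filled circles are RefSeq transcripts and open diamonds are transcripts assembled from the reads; the assembled rows of *Bmpr2*, *Bmp3* and *Id4* lie above the RefSeq row, and those of *Id2*, *Fst* and *Smad7* below it.

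The DKO mice differ from the SKO mice in the miR-17∼92 cluster, so the components were also searched for matches to its miRNAs. The cluster lies on chromosome 14 (GRCm38, forward strand) and gives 6 mature miRNAs, shown because their seeds define the matches counted here. A seed is bases 2 to 8 of the miRNA and is in capitals in these RefSeq sequences, written 5′ to 3′, and pairs with its reverse complement in a 3′-UTR.
miR-17-5p: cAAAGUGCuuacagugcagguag
miR-20a-5p: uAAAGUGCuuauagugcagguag
miR-18a-5p: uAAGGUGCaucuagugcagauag
miR-19a-3p: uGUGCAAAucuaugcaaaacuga
miR-19b-3p: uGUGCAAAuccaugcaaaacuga
miR-92a-3p: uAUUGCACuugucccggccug
miR-17 and miR-20a share 1 seed, miR-19a and miR-19b share another, and those of miR-18a and miR-92a each differ from the rest.

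All 42 genes had an annotated 3′-UTR, with a median of 1242 bases against 1024 bases for the 12451 genes at 1 CPM or more that had one. The components were not cut at 1 CPM, so *Nog* and *Grem1* are counted among them, and *Grem1* holds a miR-19 match. A match to at least 1 of the 4 seeds was found in 14 of 42 components (33.3%) and in 31.3% of the 12451 genes. Per 10 kb of 3′-UTR, the components held 3.42 matches and those genes 3.12. The miR-17 seed was matched in 7 components (16.7%, against 13.7%), the miR-19 seed in 8 (19.0%, against 12.02%), the miR-18 seed in 4 (9.52%, against 8.59%) and the miR-92 seed in 4 (9.52%, against 7.04%). The miR-17 matches lay in *Smad2*, *Smad5*, *Smad6*, *Smad7*, *Skil*, *Bmpr2* and *Id4*. Per 10 kb of 3′-UTR there were 1.10 miR-17 matches in the components and 1.06 in the 12451 genes. None of the miR-17 matches was followed by an A, the longer 8-base match that 4.24% of the 12451 genes carry. A match is a run of letters, and no repression of these genes was measured by it.

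**Figure D4:**
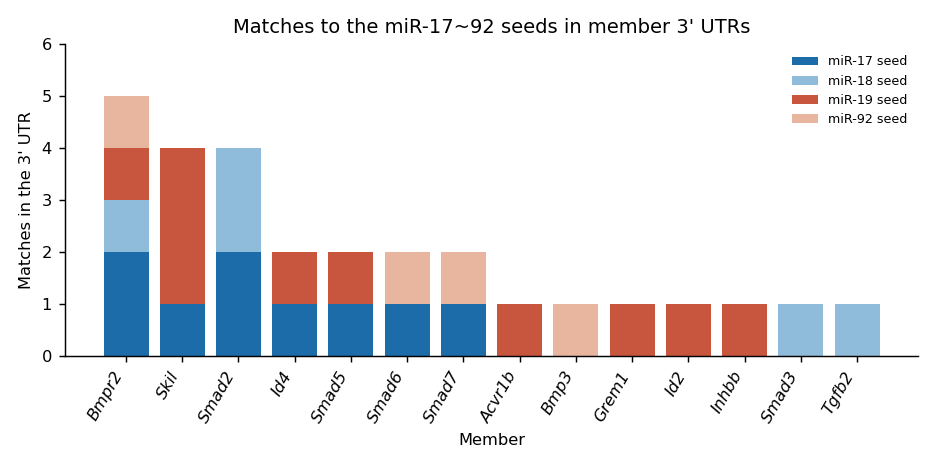
Number of seed matches (y axis) in the 3′-UTR of each of the 14 components with at least 1 (x axis), stacked by seed. *Bmpr2* has 5 matches and is the only one of these genes with all 4 seeds, and *Skil* and *Smad2* have 4 each.

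In *Bmpr2*, *Smad5* and *Skil*, a miR-19 match and a miR-17 match overlapped in a single run of 10 bases, which is in capitals in these 30-base windows of the GENCODE transcripts. They are shown because 1 stretch of each 3′-UTR matches both seeds.
Bmpr2, chr1:59870683-59870692, forward strand: ttttttaagtTTTGCACTTTtgtttagtct
Smad5, chr13:56738253-56738262, forward strand: atcttttcatTTTGCACTTTtatgggtgac
Skil, chr3:31119657-31119666, forward strand: aagggcagccTTTGCACTTTtctttgtttt
All of these positions are on GRCm38 and lie in the 3′-UTR, where the run begins at base 198, 775 and 1044 after the stop codon, respectively. The run was present in 3 of 42 components (7.14%) and in 103 of the 12451 genes at 1 CPM or more (0.827%). It was noticed in these genes before it was counted in the others, so its share is a description.

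Matches followed by an A were found for miR-19 in *Id2*, *Grem1* and *Skil* (7.14% of components, against 5.41% of the 12451 genes), for miR-92 in *Bmp3* and *Bmpr2* (4.76%, against 2.62%) and for miR-18 in *Smad2* (2.38%, against 1.502%). *Grem1* lay under 1 CPM, the cut of the 12451 genes, and the higher miR-19 share of the components rested on it. The match of *Id2*, the most abundant gene per kb, begins 51 bases after the stop codon. It is shown with that of *Bmpr2*, with the seed match in capitals and the following a in lower case.
Id2, miR-19, chr12:25094527-25094533, reverse strand: ctttctctttttctTTTGCACa
Bmpr2, miR-92, chr1:59870980-59870986, forward strand: tattttatttgaatGTGCAATa
In contrast, *Tgfbr1*, *Bmpr1a*, *Smad1* and *Smad4* held no match to any of the 4 seeds in the annotated 3′-UTR, and those of *Acvr2b*, *Fst* and *Inhba* are annotated with only 54, 81 and 82 bases.

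Of 38 further genes of these pathways, 27 (71.1%) reached 1 CPM. Their highest levels were those of *Ctgf*, a matricellular TGF-beta target, at 58.3 CPM per kb, *Sostdc1*, a BMP antagonist of tubules, at 36.8, *Dcn*, a matrix proteoglycan that binds TGF-beta, at 36.02, and *Fstl1*, a secreted follistatin-like protein, at 35.7 CPM per kb. *Eng*, the endothelial co-receptor endoglin, was at 19.8 CPM per kb. *Sostdc1* and *Twsg1*, a modulator of BMP binding at 20.8 CPM per kb, were thus far above *Nog* and *Grem1*, whereas the antagonists *Chrd* and *Bmper* were at 0.189 and 0.0744 CPM per kb. The circulating endothelial ligands *Gdf2* and *Bmp10* were at 0.0278 and 0.0308 CPM, next to the floor of 0.0263 CPM.

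The tissue label was checked against markers. *Slc34a1* of the proximal tubule and *Umod* of the thick ascending limb stood at 1030 and 1022 CPM, *Slc12a3* of the distal convoluted tubule at 169 CPM and *Aqp2* of the collecting duct at 77.7 CPM. Cells outside the reach of Ksp/Cre were also represented, with *Pecam1* of endothelium at 52.7 CPM, *Col1a1* of fibroblasts at 128 and *Csf1r* of macrophages at 25.3 CPM, so the levels of the 42 genes join those of several cell types. *Cd3e* of T cells was at 0.160 CPM. Of 4 markers of other tissues, *Ins2*, *Myh6* and *Gfap* lay under 0.2 CPM and *Alb* stood at 13.4 CPM.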

How the data were processed

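RNA-Seq was performed on 6 kidneys. Per the labels and the paper's Methods, the authors made stranded total RNA libraries, trimmed 51 bp single-end reads, mapped them with TopHat2 2.0.12 to mm10 with the iGenomes annotation and kept only alignments whose mapping quality reached 10. The submitters' processing notes also name Cufflinks, Subread 1.4.6 with featureCounts, and edgeR 3.2.4. How reads shared by transcripts were counted is not given in the sources used here. The deposited values are the average abundance of each of 54721 transcripts over the libraries on the log2 CPM scale, as the authors took it from edgeR. CPM is 2 to the power of that value. The CPM of all transcripts sums to 1.01e+06, and that of 1 transcript per gene to 370295, so CPM is relative to the total over all transcripts. The table also holds the authors' fold changes, likelihood ratios, p-values and adjusted p-values for DKO against SKO, which were not used. The planned edgeR quasi-likelihood test needs counts and was not run, so no test was made.

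Transcript lengths and 3′-UTRs were taken from GENCODE M21 (GRCm38, the assembly of mm10) by RefSeq identifier, for 20073 of 23276 gene symbols and for all 42 components. Where the highest row was assembled from the reads, the length of the gene's highest RefSeq transcript was used, and the authors' transcript model may have had another length. The arms were set by known function, and receptors or factors serving both were left out of both. *Gdf15* and *Bmp1* were also left out. All components were named, with *Tgfbr2*, *Eng* and *Smad9*, and the other genes printed from the pathway list were picked after their values were seen. The components and lists were chosen with earlier results of these data known. Seed matches were exact runs of 7 bases. The search was checked on made-up sequences. Python 3.11.15, pandas 2.3.3, numpy 2.4.6 and matplotlib 3.10.9 were used.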

Additional observations from a re-analysis of the deposited data

How the results depend on the processing

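With no replicate spread, a median or count was taken as unchanged when it stayed within 1.5 times its value. The difference of the arm medians (TGF-beta minus BMP, log2) was -0.061 and changed sign with RefSeq rows only (0.41), the lowest row of each gene (0.074), no scaling by length (0.73), shared genes counted in both arms (0.14) and target genes left out (0.46). It kept its sign with CPM summed over rows (-0.57) and with genes under 1 CPM left out (-0.46). A sum over rows also grows with the number of rows listed for a gene, so the summed setting says little about level. Summing rows raised the TGF-beta and BMP medians to 6.35 and 9.44 CPM per kb, and without length they were 21.4 and 12.9 CPM. The count of components at 1 CPM was 39 or 40 with other rows, and 36 reached 2 CPM. The 7 components with a miR-17 match fell to 0 with 8-base matches and stayed 7 with the longest annotated 3′-UTR. Among the receptors listed, scaling by length turned the order of the arm medians. For TGF-beta and BMP these were 6.53 and 3.91 CPM per kb, but 28.8 and 39.1 CPM. The list holds the BMP type II receptor *Bmpr2* (66.3 CPM) but not *Tgfbr2*, which stood at 77.7 CPM and 9.60 CPM per kb. *Tgfbr2* lay above the medians of both arms on either scale, so the lower TGF-beta median by CPM holds only for the receptors listed. No paired analysis was possible because the values are means over all kidneys, and for the same reason no kidney could be left out in turn. The depth of the libraries is unknown, so no limit of detection was set for *Nog* and *Grem1*.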
